A study of Mus musculus with 24 samples.

Results

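The Hox set is made of every row of the deposited expression table whose gene symbol is Hox, a cluster letter from a to d and a number. The symbols were matched to the table's Ensembl gene identifiers, and 43 of 54752 rows belonged to the set. Of these rows, 39 are protein-coding genes and 4 are antisense transcripts named after a Hox gene (Hoxa11os, Hoxb3os, Hoxb5os and Hoxd3os1). The rows were chosen by symbol and not by a measured value, though earlier results of these data were known. Of the 43, 18 held enough counts to be tested, out of 16463 rows tested in the whole table.

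The study asked how loss of Prdm6, a PR domain factor of vascular smooth muscle, alters the outflow vessels of the mouse fetus. Bulk RNA-seq was run on the ductus arteriosus (DA), the fetal shunt between pulmonary artery and aorta, and on the ascending aorta, each microdissected at E18.5 from mice on a C57/Black6 background. Prdm6-deficient embryos carried the Wnt1Cre2 transgene (Wnt1Cre in the sample labels) and PRDM6f/f, so that Cre was driven by the Wnt1 promoter in neural crest cells and cells of other origin in the same vessel kept the gene. The values are RSEM expected counts, given below as CPM, the count as a share of its library after TMM scaling.

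The control group of DA held 7 libraries, 5 of them PRDM6wt/f, 1 PRDM6wt/wt (library 3) and 1 Wnt1Cre2 with PRDM6wt/wt (library 2). The control group of aorta held 6 libraries, 5 of them PRDM6wt/f and 1 from the same Wnt1Cre2, PRDM6wt/wt embryo (library 3). The deficient DA group held 5 libraries, of which 1 and 2 were each a pool of 2 embryos, and the deficient aorta group held 5. Sample numbers show that 6 control embryos and 2 deficient embryos gave both vessels, and that deficient DA 2 pooled the embryos of deficient aorta 1 and 2. The animal numbers fall into 2 runs, with 2 control DA, 3 deficient DA, 1 control aorta and 2 deficient aorta libraries in the lower-numbered run. Libraries held 15163931 to 22610501 counts. A row with 3 counts, the level used as the floor of detection, then reads 0.135 to 0.2005 CPM, and this floor covers counting error only.

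Some libraries stood apart from their group. Control aorta 4 held more RNA of genes that were high in the DA than the other control aorta libraries did: Tfap2b was at 9.97 CPM in it, at 5.66 CPM in control aorta 5 and at 0.606 to 1.72 CPM in the other 4. Ptger4, the prostaglandin E receptor of the ductus, was at 55.8 CPM in control aorta 4, against 21.95 to 32.2 CPM in the others. Control DA 1 held the most cardiomyocyte RNA, with a summed level of 1073 CPM for 6 marker genes against 24.0 to 186 CPM in the other control DA libraries. Erythroid genes were highest in deficient DA 1, at 27478 CPM summed over 3 genes, and in control aorta 4, at 27368 CPM.

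As for the tissue labels, the 6 smooth muscle markers (most abundant gene Acta2) summed to a mean of 17573 CPM in control DA, 10408 in deficient DA, 10111 in control aorta and 9986 in deficient aorta. Both DA markers, Tfap2b and Ptger4, were present in control DA at means of 35.9 and 195 CPM. In deficient DA they were at 1.29 and 22.2 CPM, below their control aorta means of 3.52 and 30.8 CPM, so these labels cannot be checked by those markers in the deficient vessel. Of 5 airway and lung epithelium markers, Nkx2-1, Epcam, Sftpb and Sftpc were at 0 in all DA libraries, and Cdh1 reached 2.56 CPM in control DA and 2.16 CPM in deficient DA 7. In aorta libraries Sftpc reached 1.01 CPM and Epcam 0.764 CPM.

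Hox genes encode homeodomain transcription factors and lie in clusters, where the order of genes along the chromosome follows the order of their expression along the body axis. Low-numbered paralogs act in the hindbrain and pharyngeal arches, from which the cardiac neural crest of the outflow vessels comes, and high-numbered paralogs act in the trunk, limbs and tail. Retinoic acid activates the anterior genes, PBX and MEIS proteins bind DNA together with HOX proteins, and Polycomb and Trithorax proteins keep the clusters silent or active.

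Prdm6 itself was read first, as a check of the deletion. It ranged from 84.9 to 127 CPM in control DA (median 104) and from 95.5 to 135 CPM in control aorta (median 108). In deficient DA 1, 2, 5, 6 and 7 it was at 78.1, 70.7, 77.6, 78.5 and 58.6 CPM, and in deficient aorta 1 to 5 at 69.6, 70.0, 68.4, 81.2 and 61.9 CPM. Every deficient library was below every control library of its vessel. Prdm6 fell by 0.57 ± 0.11 on the log2 scale in DA (SE, n = 5 against 7, adjusted p = 0.00055) and by 0.69 ± 0.11 in aorta (n = 5 against 6, adjusted p = 0.00017). The count covers the whole gene, so that transcripts lacking the deleted exons are not told apart from intact ones.

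Over the 4 clusters, Hox RNA of the fetal outflow vessels came from the anterior genes of HoxA and HoxB. Summed over its 12 rows, HoxA stood at a mean of 168 ± 30.1 CPM (SD, n = 7) in control DA, 124 ± 26.9 (n = 5) in deficient DA, 89.2 ± 9.08 (n = 6) in control aorta and 114 ± 8.72 (n = 5) in deficient aorta. HoxB, also with 12 rows, stood at 172 ± 26.5, 124 ± 23.9, 79.4 ± 15.05 and 70.6 ± 9.18 CPM in the same order. HoxD, with 10 rows, was lower, at 19.1 ± 4.78, 11.2 ± 2.11, 8.61 ± 2.19 and 22.9 ± 3.60 CPM, and the 9 rows of HoxC summed to 0.902, 0.148, 0.319 and 0.0517 CPM.

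Per kilobase of exon, the highest levels were those of paralogs 2 to 5. In control DA the highest coding gene was Hoxa5, at 33.8 ± 11.2 CPM per kb (SD, n = 7), followed among coding genes by Hoxa4 at 17.7 ± 6.31, Hoxb2 at 17.1 ± 3.18, Hoxa2 at 13.2 ± 2.30 and Hoxb4 at 12.3 ± 3.11. Hoxa4 and Hoxb2 differed by less than their spread, as did Hoxa2 and Hoxb4. The antisense row Hoxb5os stood at 13.3 ± 7.23 CPM per kb in control DA, also within the spread of these. In control aorta Hoxa2 and Hoxb2 led with 10.5 ± 1.72 and 9.94 ± 1.16 CPM per kb (n = 6), also within their spread, and Hoxa5 stood at 5.78 ± 2.69. Deficient DA held Hoxa5 at 13.8 ± 4.53, Hoxa2 at 13.1 ± 3.09 and Hoxb2 at 12.9 ± 3.41 CPM per kb (n = 5), a spread that separates none of the 3, and in deficient aorta Hoxa2 was highest at 14.2 ± 2.82.

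**Figure D1:**
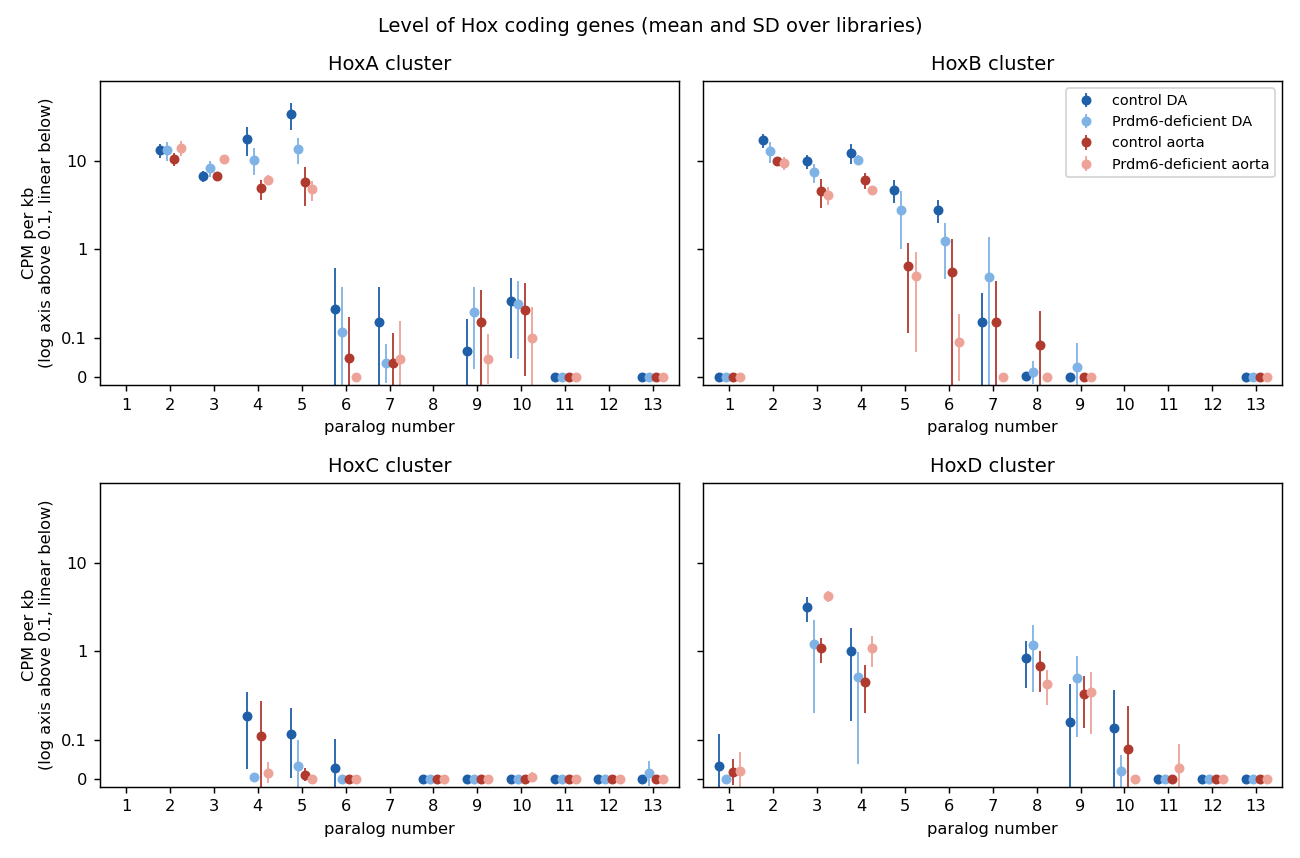
Mean level of Hox coding genes in CPM per kb of exon (points, with SD over libraries as whiskers) against paralog number, 1 panel a cluster, with the 4 groups in colour; the axis is logarithmic above 0.1 and linear below, and not every gene is drawn. HoxA and HoxB stand highest at their low-numbered paralogs, with Hoxa5 at 33.8 CPM per kb in control DA.

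Of the 43 rows, 13 had at most 3 counts in every library, and 11 of these had 0 counts throughout (Hoxa11, Hoxa11os, Hoxa13, Hoxb1, Hoxb13, Hoxc8, Hoxc9, Hoxc11, Hoxc12, Hoxd12 and Hoxd13). The others were Hoxc10 and Hoxc13, with at most 3 counts. Most of the 13 are high-numbered paralogs, but Hoxb1, at the anterior end of HoxB, is among them. A further 12 rows passed 3 counts in at least 1 library but were too low to be tested: Hoxa6, Hoxa7, Hoxb7, Hoxb8, Hoxb9, Hoxc4, Hoxc5, Hoxc6, Hoxd1, Hoxd3os1, Hoxd10 and Hoxd11. Among the rows over 3 counts in all libraries were Hoxa2, Hoxa3, Hoxa4, Hoxa5, Hoxb2, Hoxb3, Hoxb3os, Hoxb4 and Hoxd8. Hoxc4, the highest HoxC member per kb, ranged from 0 to 1.12 CPM in control DA (median 0.455) and from 0 to 1.06 CPM in control aorta (median 0.115). It was at 0, 0, 0, 0.0575 and 0 CPM in deficient DA 1, 2, 5, 6 and 7 and at 0.159, 0, 0, 0.0465 and 0 CPM in deficient aorta 1 to 5. Control DA held it above the floor in 5 of 7 libraries and control aorta in 2 of 6, and it was too low to be tested.

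The annotated promoters of 25 of the 43 rows, 27 promoters in all, were found in the RefSeq table (GRCm38.p6). For Hoxa4, Hoxb2, Hoxb3, Hoxb5, Hoxb5os and Hoxb6 there was no entry. The bases before the start are printed for Hoxa2, which was called in no comparison, and for Hoxa5, Hoxb4 and Hoxd3, whose counts passed a test below; each is given 5′ to 3′ on the gene's strand. They lie at chr6:52164832-52165081 (minus strand), chr6:52204588-52204837 (minus), chr11:96318017-96318266 (plus) and chr2:74711743-74711926 (plus). The Hoxd3 stretch stops 66 bases before the RefSeq start, where an annotated exon begins.
Hoxa2: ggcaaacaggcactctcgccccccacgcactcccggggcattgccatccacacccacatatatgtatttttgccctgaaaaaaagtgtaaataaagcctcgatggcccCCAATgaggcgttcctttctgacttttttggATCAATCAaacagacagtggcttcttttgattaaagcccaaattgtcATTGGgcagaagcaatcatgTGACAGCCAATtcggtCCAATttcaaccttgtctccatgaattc
Hoxa5: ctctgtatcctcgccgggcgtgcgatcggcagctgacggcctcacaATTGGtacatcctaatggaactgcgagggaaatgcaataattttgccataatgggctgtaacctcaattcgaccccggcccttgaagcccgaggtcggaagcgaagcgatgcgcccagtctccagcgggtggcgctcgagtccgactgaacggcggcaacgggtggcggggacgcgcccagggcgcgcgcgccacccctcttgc
Hoxb4: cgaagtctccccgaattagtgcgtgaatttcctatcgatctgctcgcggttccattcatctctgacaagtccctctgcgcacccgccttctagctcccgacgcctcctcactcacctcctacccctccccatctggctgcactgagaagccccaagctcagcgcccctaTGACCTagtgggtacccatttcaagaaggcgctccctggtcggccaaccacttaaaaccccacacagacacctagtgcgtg
Hoxd3: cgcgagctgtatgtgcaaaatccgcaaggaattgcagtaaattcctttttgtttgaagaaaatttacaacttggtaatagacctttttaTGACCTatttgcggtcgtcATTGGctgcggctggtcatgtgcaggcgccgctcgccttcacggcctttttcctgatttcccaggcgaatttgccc
Capitals mark matches on either strand to the motifs searched, and a match is a string of letters, not a shown binding site. HOX and PBX proteins together read TGATTNAT, a motif which occurs in 2.82% of 32851 promoter windows of 250 bases and was matched only in Hoxa2 here. For MEIS and PKNOX proteins the motif searched was TGACAG, which is present in 15.9% of windows and was also matched only in Hoxa2, directly before a CCAAT box. Such boxes are present in 33.8% of windows, and they were matched at 4 places in Hoxa2 and once each in Hoxa5 and Hoxd3. Receptors of retinoic acid read AGGTCA, which is present in 14% of windows and was matched once each in Hoxb4 and Hoxd3. The palindromic homeodomain core TAATTA, with 4.84% of windows, was matched in none of the stretches printed, and the same held for the TATA box, with 12.4%.

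The comparison of the normal vessels, control DA against control aorta, shows which Hox genes set the ductus apart from the ascending aorta before birth. Here and below, a gene is called where edgeR's quasi-likelihood test gave a Benjamini-Hochberg adjusted p below 0.01 over all genes tested and a log2 fold change beyond 0.5. Of 18 tested Hox genes, 7 were called, all 7 higher in DA, in a comparison that called 5.36% of all genes tested in either direction and 3.16% as higher in DA. Paralogs 4 to 6 held 5 of the 7 (Hoxa4, Hoxa5, Hoxb4, Hoxb5 and Hoxb5os, of 7 tested; median log2 2.33), and paralogs 1 to 3 held Hoxb2 and Hoxb3 (2 of 7, median 0.79). Hoxb5os and Hoxb6 passed 3 counts in all 7 control DA libraries, but in only 2 and 3 of 6 control aorta libraries. Both entered the test through DA libraries, so a higher level in DA was built into their selection. The median of paralogs 4 to 6 is the value of Hoxb6. None of the 4 tested rows of paralogs 8 to 10 was called by edgeR, with 0 of 4 at an unadjusted p under 0.05 and 0 by DESeq2 (median log2 -0.36). The median over the 18 was 0.93, and over all genes tested -0.0050. The 18 are the rows with enough counts, and in bulk tissue fewer cells of a type and less RNA per cell cannot be told apart.

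Hoxa5 (ENSMUSG00000038253.6, chromosome 6, bases 52201754 to 52204587, minus strand, mm10) is known for its role in the trachea, lung and neck. It ranged from 43.3 to 99.5 CPM in control DA (median 52.4) and from 5.90 to 20.0 CPM in control aorta (median 8.88). The groups did not overlap, control DA 3, 5 and 7 were the highest at 99.5, 84.9 and 64.0 CPM, and the highest aorta library was control aorta 4. The log2 difference was 2.55 ± 0.26 (SE, n = 7 against 6, adjusted p = 7.6e-08), and 2.99 without control aorta 4 and 5 (adjusted p = 2.3e-08). Within the higher-numbered run of animals it was 2.36 (adjusted p = 1.1e-05), and the other run held 1 control aorta library.

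Hoxa4 (ENSMUSG00000000942.10, chromosome 6, bases 52189671 to 52191753, minus strand) neighbours Hoxa5 and helps to pattern the neck region. It ranged from 15.2 to 39.2 CPM in control DA (median 25.2) and from 6.31 to 11.4 CPM in control aorta (median 6.85), with no overlap. DA libraries 3, 5 and 7 were again high, at 38.7, 39.2 and 37.5 CPM, and the other 4 were at 15.2 to 25.2 CPM. The log2 difference was 1.86 ± 0.23 (n = 7 against 6, adjusted p = 1.7e-06). Of its exon bases, 16% lie opposite the antisense gene Gm29430, and since it is not known whether strands were kept apart in counting, counts of such shared stretches are uncertain here and for the overlapping genes below.

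Hoxb4 (ENSMUSG00000038692.8, chromosome 11, bases 96318267 to 96321638, plus strand), best known from blood stem cells and the posterior hindbrain, shares no exon base with another gene. It ranged from 20.6 to 41.9 CPM in control DA (median 30.4) and from 11.3 to 20.0 CPM in control aorta (median 14.9). The lowest DA library stood just above the highest aorta library. The log2 difference was 1.02 ± 0.15 (n = 7 against 6, adjusted p = 2.4e-05).

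Hoxb2 and Hoxb3, which pattern the hindbrain, lie at the anterior end of HoxB on chromosome 11, plus strand (ENSMUSG00000075588.6, bases 96350525 to 96354012, and ENSMUSG00000048763.11, bases 96323326 to 96347930). Hoxb2 ranged from 45.4 to 72.3 CPM in control DA (median 56.0) and from 30.2 to 40.8 CPM in control aorta (median 35.0), without overlap, and differed by 0.79 ± 0.14 on the log2 scale (n = 7 against 6, adjusted p = 0.00027). Hoxb3 ranged from 30.6 to 50.7 CPM in control DA (median 41.1) and from 14.04 to 32.6 CPM in control aorta (median 17.2). Its groups overlapped, because control aorta 4 at 32.6 CPM was above control DA 3 at 30.6 CPM. The log2 difference of Hoxb3 was 1.11 ± 0.19 (adjusted p = 0.00017), and 1.43 without control aorta 4 and 5 (adjusted p = 9.5e-06). The antisense row Hoxb3os lies opposite 52.9% of the exon bases of Hoxb3 and 27.3% of those of Hoxb2. It ranged from 3.49 to 22.9 CPM in control DA and from 1.77 to 8.41 CPM in control aorta, and its difference of 0.84 did not pass the test (adjusted p = 0.33).

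Hoxb5 (ENSMUSG00000038700.4, chromosome 11, bases 96303336 to 96306121, plus strand), known from enteric neural crest and endothelial development and named in the study's own text, was low in the control aorta. It ranged from 7.57 to 19.3 CPM in control DA (median 13.9) and from 0.202 to 3.64 CPM in control aorta (median 1.52). The groups did not overlap, and control aorta 4 and 5 were the highest of the aorta, at 3.42 and 3.64 CPM. The log2 difference was 2.87 ± 0.65 (n = 7 against 6, adjusted p = 0.0031), and 3.82 without control aorta 4 and 5. The call was lost without control aorta 3 (2.75, adjusted p = 0.011), without the embryo that carries Cre (2.75, adjusted p = 0.015) and within the higher-numbered run of animals (2.70, adjusted p = 0.035).

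Hoxb5os (ENSMUSG00000085645.1, chromosome 11, bases 96291024 to 96306910, minus strand) is the antisense transcript that starts beyond Hoxb5, and 14.4% of its exon bases lie opposite that gene. It ranged from 4.19 to 18.8 CPM in control DA (median 8.71) and from 0 to 1.26 CPM in control aorta (median 0.0999), where only libraries 4 and 5 passed 3 counts, at 0.915 and 1.26 CPM. All DA libraries were above all aorta libraries. The log2 difference was 4.48 ± 0.81 (n = 7 against 6, adjusted p = 0.0004). It was 5.26 without control aorta 5 (adjusted p = 0.0002), and the fitted value without control aorta 4 and 5, whose remaining libraries are at or under the floor, is no measure of size.

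**Figure D2:**
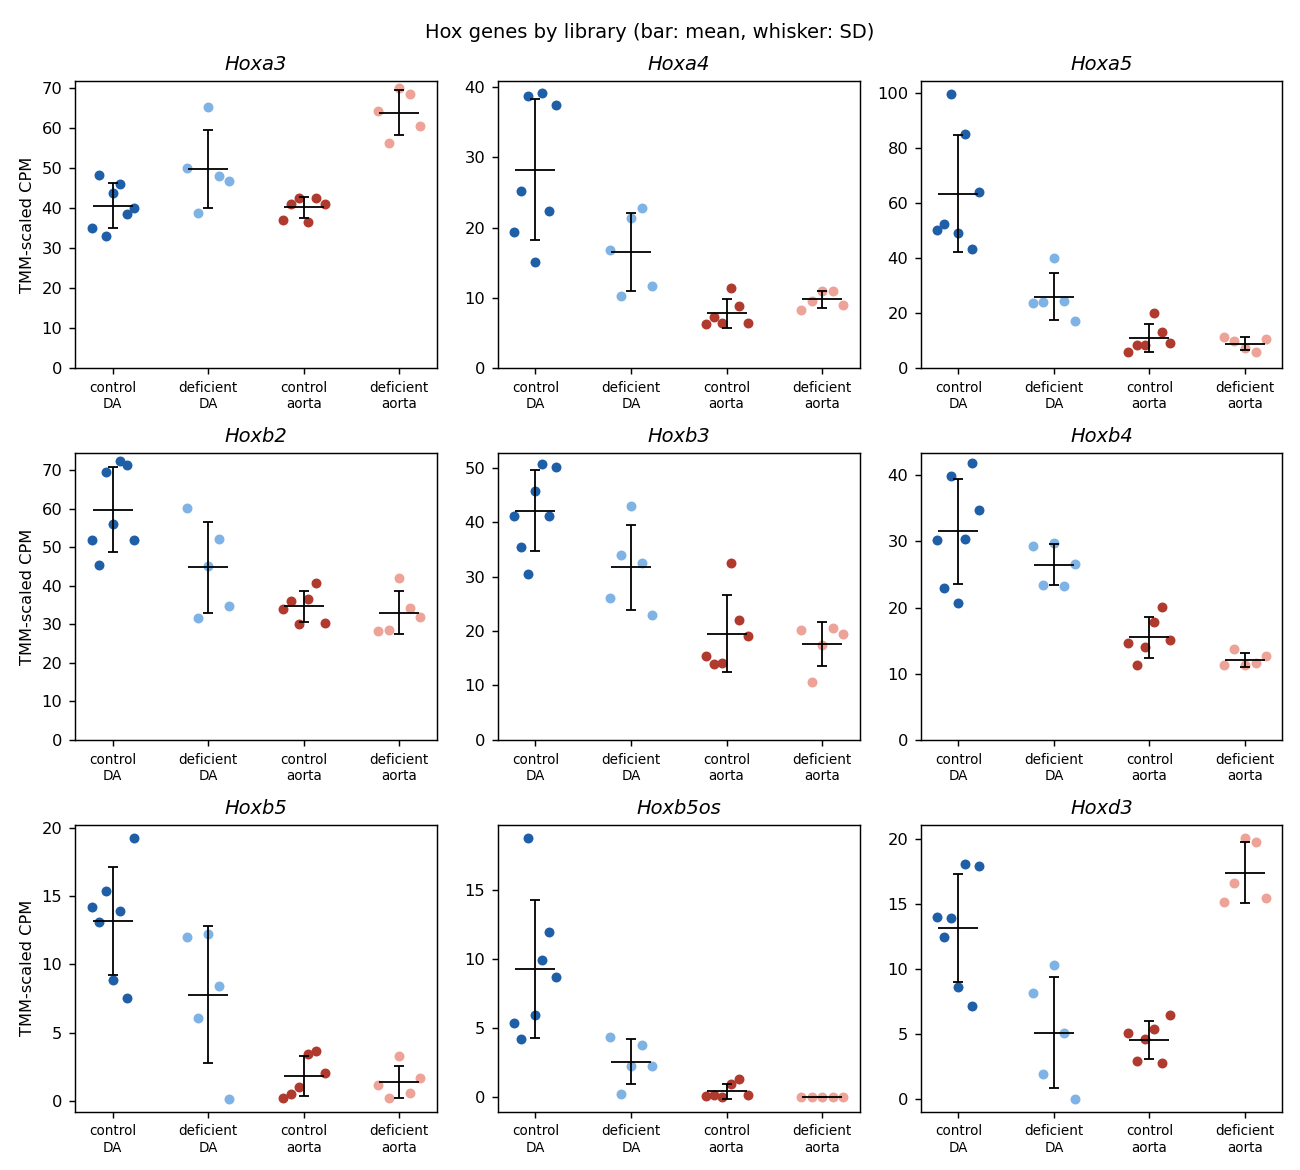
Level of 9 Hox genes in each library (points, TMM-scaled CPM; bar: mean, whisker: SD) in control DA (n = 7), deficient DA (n = 5), control aorta (n = 6) and deficient aorta (n = 5). Control DA lies above control aorta for Hoxa4, Hoxa5, Hoxb2, Hoxb4, Hoxb5 and Hoxb5os, while Hoxa3 and Hoxd3 are highest in deficient aorta.

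The other 11 tested Hox genes were not called between the control vessels. Hoxa3, which shapes the pharyngeal arch arteries, thymus and parathyroid, was level between them, at 40.6 ± 5.64 CPM (SD, n = 7) in DA and 40.1 ± 2.68 CPM (n = 6) in aorta (log2 difference 0.015 ± 0.10). Hoxa2, needed for arch identity, differed by 0.34 ± 0.15. Hoxb6 lay at 3.73 to 8.52 CPM in control DA and 0 to 3.55 CPM in control aorta, without overlap, but missed the threshold (2.33 ± 0.93, adjusted p = 0.12). Hoxd4 (1.15 ± 0.91) was not called either. Hoxa9, Hoxa10, Hoxd8 and Hoxd9, the most posterior rows tested, had means between 0.339 and 2.31 CPM in both control vessels.

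In the 6 control embryos that gave both vessels, the same genes can be read within an animal. Hoxa4, Hoxa5, Hoxb2, Hoxb3, Hoxb4, Hoxb5, Hoxb5os, Hoxb6 and Hoxd3 were higher in the DA in 6 of 6 embryos. Of these, Hoxb5os and Hoxb6 entered the test through DA libraries, and the share of all genes higher in 6 of 6 embryos is not given here. The ratio of DA to aorta ran from 2.46 to 9.18 for Hoxa5 (median 5.70), from 1.33 to 6.06 for Hoxa4 (median 3.52) and from 1.16 to 3.71 for Hoxb4 (median 1.88). The lowest ratio of each of these 3 genes came from the embryo of control aorta 4. Hoxa3 was higher in the DA in 3 of 6 embryos, with ratios of 0.935 to 1.19. With embryo as a replicate block in these 12 libraries, 8 Hox genes were called, the 7 above and Hoxd3 (log2 1.502, adjusted p = 0.0030). These libraries are among those that gave the 7 calls, so the 2 results are not independent. The share of all genes called in this fit is not given here, so the count of 8 cannot be set against it.

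Marker genes differed between the control vessels as well. Higher in DA were 5 of 6 smooth muscle markers (summed 12976 to 22886 CPM in DA and 8223 to 11717 CPM in aorta, most abundant gene Acta2) and both DA markers (162 to 316 and 22.6 to 65.8 CPM, Ptger4). So were 4 of 6 melanocyte markers (32.2 to 228 and 2.17 to 14.8 CPM, Dct), Foxf1 and Fendrr of 6 lung mesenchyme markers (81.1 to 125 and 19.7 to 49.4 CPM, Foxf1) and Ckm of 4 skeletal muscle markers. Wnt2 and Fgf10 of the lung mesenchyme list had differences of -0.61 ± 0.36 and -0.69 ± 0.39 and were not called. Acan of 3 cartilage markers was lower (34.3 to 167 and 239 to 354 CPM), while Col2a1 of that list had a difference of 1.98 ± 1.23 and was not called. The part of all these markers in the Hox results was not tested.

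**Figure D3:**
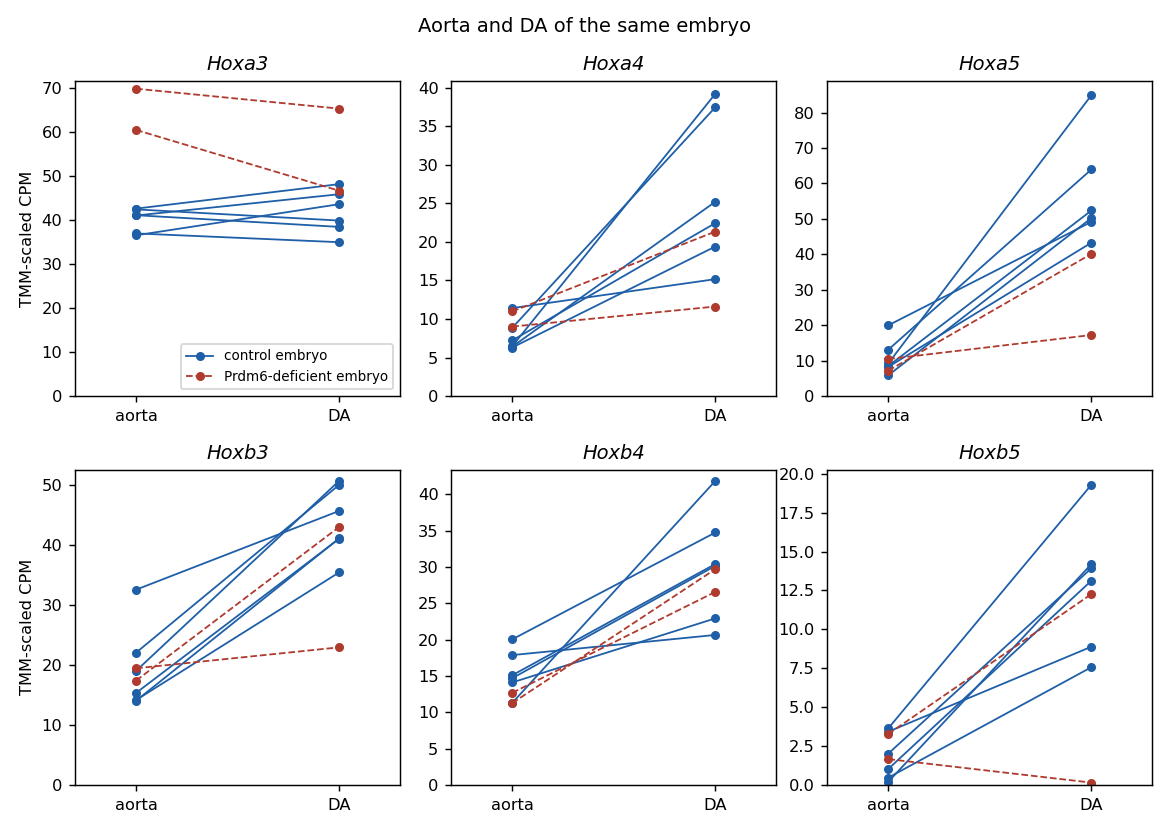
Level in the ascending aorta and in the DA of the same embryo, joined by a line, for 6 Hox genes (TMM-scaled CPM), with 6 control embryos (solid) and 2 Prdm6-deficient embryos (dashed). In control embryos the lines of Hoxa4, Hoxa5, Hoxb3, Hoxb4 and Hoxb5 all go up toward the DA, and those of Hoxa3 stay between 35.0 and 48.2 CPM.

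Loss of Prdm6 in the DA, deficient against control, moved 1 Hox gene past the threshold, Hoxa5. Of 18 tested, 1 was called (5.56%), lower in deficient DA, in a comparison that called 5.43% of all genes in either direction and 2.82% as lower, so that the share of Hox genes called was close to that of all genes. At an unadjusted p under 0.05 there were 7. The fold change was negative in 14 of the 18, with a median of -0.45 against 0.012 for all genes tested. Here and in the other comparisons, the share of all genes at an unadjusted p under 0.05 is not given. Such counts, and that of negative fold changes, are therefore not read as an excess. By paralog, the medians were -0.42 for 1 to 3 (0 of 7 called, 4 at an unadjusted p under 0.05, 0 by DESeq2), -0.97 for 4 to 6 (1 of 7) and 0.997 for 8 to 10 (0 of 4 called, 0 at an unadjusted p under 0.05, 0 by DESeq2).

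Hoxa5 stood at 23.6, 24.0, 40.2, 24.4 and 17.3 CPM in deficient DA 1, 2, 5, 6 and 7, against the control DA range of 43.3 to 99.5 CPM with its median of 52.4. All 5 deficient libraries were below all 7 control libraries, with deficient DA 5 the nearest. Hoxa5 fell by 1.29 ± 0.26 on the log2 scale (SE, adjusted p = 0.0011), from a mean of 63.4 ± 21.1 CPM to 25.9 ± 8.50 (SD), which remained above the control aorta mean of 10.8 ± 5.06. The control DA libraries are the same as in the comparison of vessels, so these results on Hoxa5 are not independent of each other. The call was lost without the pooled deficient samples (log2 -1.21, adjusted p = 0.020). Within the lower-numbered run of animals (3 against 2) the log2 difference was -1.37 (adjusted p = 0.027) and within the other run (2 against 5) -1.502 (adjusted p = 0.019).

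Its neighbour Hoxa4 was at 16.8, 10.3, 21.3, 22.8 and 11.6 CPM in the deficient DA libraries, overlapping the control range of 15.2 to 39.2 CPM. The difference of -0.77 ± 0.24 did not pass (adjusted p = 0.031), but it did without control DA 4 (-0.88, adjusted p = 0.0088). Hoxb2 was at 60.2, 31.6, 45.2, 52.2 and 34.9 CPM and Hoxb3 at 26.1, 34.0, 43.0, 32.6 and 22.9 CPM, each overlapping the controls (log2 -0.42, adjusted p = 0.069, and -0.41, adjusted p = 0.22). Hoxb4 was at 29.3, 23.4, 29.7, 23.3 and 26.6 CPM, within the control range of 20.6 to 41.9 CPM (log2 -0.25, adjusted p = 0.37).

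Hoxb5 was at 12.0, 6.07, 12.3, 8.45 and 0.147 CPM in deficient DA 1, 2, 5, 6 and 7. The 4 others lay at 6.07 CPM or above, and deficient DA 7 was at 3 counts. The difference of -0.76 ± 0.63 did not pass the test (adjusted p = 0.53). Hoxb5os was at 4.36, 0.170, 2.24, 3.79 and 2.26 CPM against 4.19 to 18.8 CPM in control DA, with only deficient DA 1 inside the control range (log2 -1.85 ± 0.75, adjusted p = 0.12). Deficient DA 7, which was lowest for Hoxb5, was also lowest for Hoxa5 and Hoxb3, and deficient DA 2 was lowest for Hoxa4, Hoxb2 and Hoxb5os.

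Marker genes moved in the same comparison. Of 6 smooth muscle markers 4 were lower in deficient DA (Tagln, Myh11, Cnn1 and Smtn), and the summed level was 12976 to 22886 CPM in control DA (median 16856) and 10842, 9488, 11530, 10498 and 9681 CPM in deficient DA. Both DA markers were lower, from a summed 162 to 316 CPM (median 185; most abundant gene Ptger4) to 22.8, 26.1, 15.6, 31.9 and 21.1 CPM. The control DA libraries 3, 5 and 7, highest for Hoxa4 and Hoxa5, were also highest for this sum, at 316, 305 and 284 CPM against 162 to 185 CPM in the other 4.

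Among 6 melanocyte markers 4 were lower (most abundant gene Dct), with a summed 32.2 to 228 CPM in control DA (median 91.6) and 3.43, 2.44, 2.70, 3.68 and 4.95 CPM in deficient DA, where Dct was at 0 in 4 of 5 libraries. Of 6 lung mesenchyme markers Foxf1, the most abundant, and Fendrr were lower, with a summed 81.1 to 125 CPM (median 92.5) against 15.2, 11.2, 10.9, 16.2 and 19.2 CPM, and Tbx4 was at 0 in 5 of 7 control and all 5 deficient DA libraries. In control DA, Foxf1 had a mean of 76.3 CPM in a mean sum of 98.4 CPM. Tbx5, Wnt2 and Fgf10 had differences of 0.84 ± 0.89, -0.33 ± 0.38 and -1.01 ± 0.43 and were not called. Acan, the most abundant of 3 cartilage markers, was higher, the list summing to 34.3 to 167 CPM in control DA (median 64.6) and 249, 269, 272, 222 and 297 CPM in deficient DA. Col2a1 of that list had a difference of -0.59 ± 1.24 and was not called. Lum of 4 fibroblast markers was higher, with overlapping sums (most abundant gene Col1a1; 2171 to 4154 CPM in control and 3430 to 4239 CPM in deficient DA). Ckm, the most abundant of 4 skeletal muscle markers, was lower (sums of 34.3 to 204 and 8.91 to 34.8 CPM). Pparg and Adipoq of 4 brown fat markers were lower, with overlapping sums (most abundant gene Cidea; 2.23 to 49.7 and 3.62 to 7.87 CPM), and Adipoq was highest in control DA 2 and 7, at 29.04 and 26.8 CPM, while Cidea differed by 0.50 ± 0.31 and was not called. The part of these markers in the Hox results was not tested.

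In the ascending aorta, where the same comparison asks what Prdm6 does in a second vessel from the neural crest, Hoxa3 was the Hox gene that passed the threshold. Of 18 tested, 1 was called, higher in deficient aorta, in a comparison that called 2.45% of all genes in either direction and 1.63% as higher. At an unadjusted p under 0.05 there were 7, and the median log2 fold change was -0.22 against -0.0010 for all genes. By paralog, 1 to 3 held the 1 call of 7 (median 0.081), 4 to 6 held 0 of 7 by edgeR (3 at an unadjusted p under 0.05, 1 by DESeq2, median -0.36), and 8 to 10 held 0 of 4 (0 at an unadjusted p under 0.05, 0 by DESeq2, median -0.85).

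Hoxa3 (ENSMUSG00000079560.13, chromosome 6, bases 52169062 to 52213336, minus strand) was at 64.2, 56.2, 69.9, 68.4 and 60.5 CPM in deficient aorta 1 to 5, against 36.6 to 42.6 CPM in the 6 control aorta libraries (median 41.1). All 5 deficient libraries were above all 6 controls. Hoxa3 rose by 0.67 ± 0.11 on the log2 scale (SE, adjusted p = 0.00025), and by 0.61 within the higher-numbered run (adjusted p = 0.0036), the other run holding 1 control aorta library. In deficient DA 1, 2, 5, 6 and 7 the same gene was at 50.1, 38.8, 65.3, 48.0 and 46.7 CPM, overlapping the control DA range of 32.9 to 48.2 CPM (median 39.9; log2 0.30 ± 0.11, adjusted p = 0.078). The difference of the genotype effects between the vessels was -0.37 ± 0.16 and did not pass (adjusted p = 0.21). Of its exon bases 25.4% lie opposite other transcripts, Hoxaas2 and Hoxaas3 among them.

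Hoxd3 (ENSMUSG00000079277.9, chromosome 2, bases 74711927 to 74748442, plus strand), which acts in the skeleton of the upper neck, was at 15.1, 16.6, 20.1, 19.8 and 15.5 CPM in deficient aorta 1 to 5 and at 2.79 to 6.47 CPM in control aorta (median 4.83). The groups were far apart, yet the test over all libraries missed the threshold (log2 1.94 ± 0.51, adjusted p = 0.022), with 1 estimate of the spread for a gene over the 4 groups. It was passed without deficient DA 7 (1.94, adjusted p = 0.00018), a library with 0 counts of Hoxd3, and with only the aorta libraries fitted (1.94, adjusted p = 7.2e-06). Hoxb5os, at 0 to 1.26 CPM in control aorta, had 0 counts in all 5 deficient aorta libraries. Taking the highest floor of these libraries, 0.159 CPM for 3 counts, its mean of 0.404 CPM in control aorta was at least 2.54-fold higher, and the test did not pass (adjusted p = 0.014). This bound rests on control aorta 4 and 5: it is 1.90-fold without library 4, 1.47-fold without library 5, and none can be given without both, when the control mean of 0.0626 CPM is under the floor. It did pass without deficient DA 2 (adjusted p = 0.0076) and without control aorta 3 (adjusted p = 0.0071), while the adjusted p was 0.039 without control aorta 5 and 0.23 without control aorta 4 and 5.

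Markers were read here too. The smooth muscle sum was 8223 to 11717 CPM in control aorta (median 10207) and 9966, 10365, 9907, 9007 and 10687 CPM in deficient aorta, with 0 of 6 markers called by edgeR (2 at an unadjusted p under 0.05, 0 by DESeq2). Of 4 endothelial markers Tek was higher, and the list (most abundant gene Pecam1) summed to 371 to 591 CPM in control aorta (median 456) and 716, 752, 536, 661 and 638 CPM in deficient aorta. Foxf1 and Fendrr of the lung mesenchyme list were lower, with Foxf1 at 1.08 to 18.3 CPM in control aorta and 0.195 to 2.14 CPM in deficient aorta. The sums of that list overlapped (19.7 to 49.4 and 16.5 to 38.04 CPM), and Fgf10 had a difference of 0.48 ± 0.42 and was not called. Of 4 fibroblast markers Lum was higher, while the list (most abundant gene Col1a1) summed to 3275 to 4144 CPM in control aorta and 2907 to 3654 CPM in deficient aorta. The 4 leukocyte markers (most abundant gene Lyz2) summed to 58.2 to 119 CPM in control aorta (median 77.3) and 42.8, 29.7, 57.6, 52.5 and 37.9 CPM in deficient aorta, without overlap, with 0 of 4 called by edgeR (3 at an unadjusted p under 0.05, 1 by DESeq2). Their part in the Hox results was not tested.

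**Figure D4:**
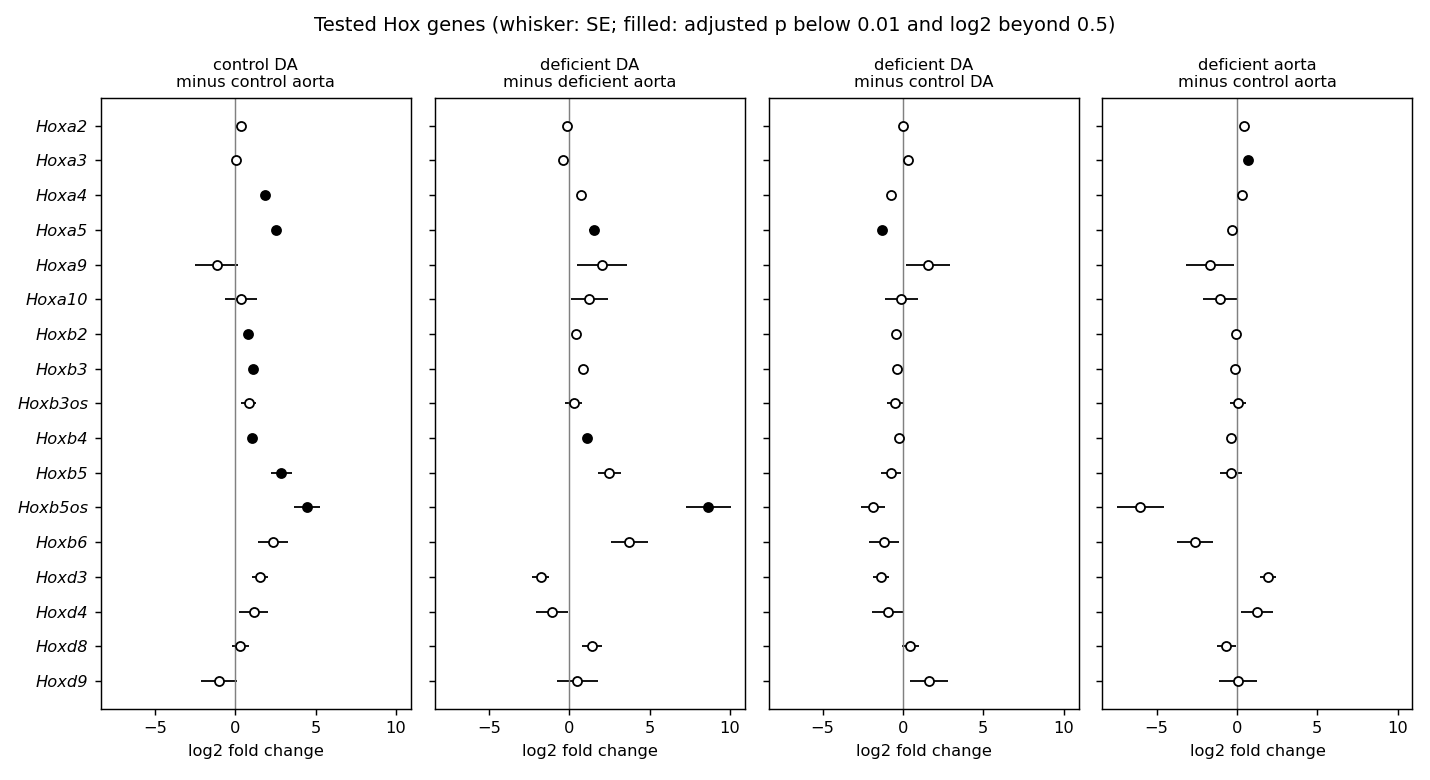
Log2 fold change of 17 of the 18 tested Hox genes (points; whiskers, SE) in 4 comparisons named above each panel, with filled points where the adjusted p was below 0.01 and the fold change beyond 0.5. Filled points are 7, 3, 1 and 1 from left to right, and the Hoxb5os values against deficient aorta, where it has 0 counts, are fitted values and no measure of size.

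Between the deficient vessels, DA against aorta, part of the difference in paralogs 4 to 6 was still present. Of 18 tested, 3 were called, all 3 higher in deficient DA (Hoxa5, Hoxb4 and Hoxb5os), where 0.267% of all genes were called in either direction and 0.152% as higher in DA. All 3 belong to paralogs 4 to 6 (3 of 7, median log2 1.54), but Hoxb5os entered the test through DA libraries alone. Paralogs 1 to 3 had 0 of 7 called by edgeR (4 at an unadjusted p under 0.05, 1 by DESeq2), and 8 to 10 had 0 of 4 (1 at an unadjusted p under 0.05, 0 by DESeq2, median 1.34). The median over the 18 was 0.80 against -0.00030 for all genes, and stayed at 0.80 with Hoxb5os at the bound given next. This comparison shares its libraries with those of genotype.

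Hoxb4 stood at 29.3, 23.4, 29.7, 23.3 and 26.6 CPM in deficient DA and 11.3, 13.7, 11.3, 11.7 and 12.7 CPM in deficient aorta, without overlap (log2 1.13 ± 0.17, adjusted p = 0.0011). With replicate number as a replicate block, Hoxb4 was not called (adjusted p = 0.0129). Its difference between the vessels was thus 1.02 in control and 1.13 in deficient embryos, and the test of that change gave 0.10 ± 0.23 (adjusted p = 0.90). Hoxa5 stood at 17.3 to 40.2 CPM in deficient DA and at 11.3, 9.75, 7.20, 5.91 and 10.5 CPM in deficient aorta, again without overlap (log2 1.54 ± 0.28, adjusted p = 0.0053). Its change in difference, -1.01 ± 0.37, did not pass (adjusted p = 0.14).

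The Hoxa5 call between deficient vessels was lost without any 1 of 9 libraries: deficient DA 1, 2, 5 or 6 (adjusted p = 0.0116, 0.0121, 0.0180 and 0.0115) or deficient aorta 1 to 5 (0.0107, 0.0184, 0.0215, 0.0227 and 0.0134). Its log2 difference stayed at 1.32 to 1.65 over all libraries left out in turn. The call was also lost without the pooled samples (1.61, adjusted p = 0.031), with the run of animals as a covariate (1.52, adjusted p = 0.0103) and with replicate number as a replicate block (1.63, adjusted p = 0.0129). Hoxb5os was at 0.170 to 4.36 CPM in deficient DA and at 0 in the 5 deficient aorta libraries. Its deficient DA mean of 2.56 CPM was at least 16.1-fold higher than the highest aorta floor (adjusted p = 0.0023). Hoxb5os was not called with the replicate block (adjusted p = 0.0129). In the 2 deficient embryos that gave both vessels, the ratio of DA to aorta was 5.58 and 1.65 for Hoxa5 and 2.64 and 2.10 for Hoxb4. Hoxb5 (log2 2.49 ± 0.73, adjusted p = 0.12) and Hoxb3 (0.85 ± 0.22, adjusted p = 0.058) did not pass.

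Whether the effect of genotype differs between the vessels was tested as an interaction, the log2 difference in DA minus that in aorta. Of 18 Hox genes, 1 was called, Hoxd3, with 2.58% of all genes called and 5 Hox genes at an unadjusted p under 0.05. The median over the 18 was -0.30, or -0.36 with Hoxb5os at its bound, and over all genes 0.0066. By paralog, 1 of 7 was called in 1 to 3, 0 of 7 in 4 to 6 (3 at an unadjusted p under 0.05, 0 by DESeq2) and 0 of 4 in 8 to 10 (0 and 0).

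Hoxd3 ranged from 7.13 to 18.1 CPM in control DA (median 13.9) and was at 8.16, 1.93, 10.3, 5.06 and 0 CPM in deficient DA 1, 2, 5, 6 and 7. In the aorta it ran the other way, from 2.79 to 6.47 CPM in control (median 4.83) to 15.1, 16.6, 20.1, 19.8 and 15.5 CPM in deficient libraries. The DA groups overlapped and the aorta groups did not. The log2 differences were -1.37 ± 0.51 in DA (adjusted p = 0.083) and 1.94 ± 0.51 in aorta (adjusted p = 0.022), neither past the threshold, and their difference was -3.31 ± 0.72 (adjusted p = 0.0048). Between the vessels Hoxd3 differed by 1.54 ± 0.48 in control embryos (adjusted p = 0.036) and by -1.77 ± 0.54 in deficient embryos (adjusted p = 0.15).

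The call was lost without deficient DA 2 (-3.10, adjusted p = 0.0115), deficient DA 6 (-3.31, 0.0103), control aorta 2 (-3.21, 0.0104), deficient aorta 3 (-3.26, 0.01003) or deficient aorta 4 (-3.26, 0.0107). It was also lost without the pooled samples (-3.30, adjusted p = 0.017) and with replicate number as a replicate block (adjusted p = 0.017). The fits without the Cre control and without control aorta 4 and 5 lost it as well. Over all alternatives the adjusted p ran from 0.00019 to 0.017. By run of animals, the deficient DA mean was 7.84 CPM (3 libraries) in the lower-numbered run and 0.965 CPM (2 libraries) in the other, against control DA means of 13.2 and 13.2 CPM. The DA difference was -0.75 in the former (adjusted p = 0.36) and -3.80 in the latter (adjusted p = 0.0085).

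In the interaction, 4 of 6 smooth muscle markers (Tagln, Myh11, Cnn1 and Smtn), Ptger4 of both DA markers and Acan of 3 cartilage markers were called too. Col2a1 of the cartilage list had an interaction of -1.45 ± 1.79, against 1.90 ± 0.38 for Acan, and was not called. In deficient aorta the DA markers summed to 30.7, 30.95, 21.04, 27.6 and 25.7 CPM and the cartilage markers to 337, 200.1, 171, 213 and 299 CPM, and the other sums are given above. Their part in the Hoxd3 result was not tested.

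In GENCODE M21, which may differ from the annotation used for counting, 62.3% of the exon bases of Hoxd3 are shared on the same strand with Hoxd4 and Gm28230, and how the counts were divided among these rows was not tested. Hoxd4 had means of 2.96 CPM in control DA, 1.51 in deficient DA, 1.33 in control aorta and 3.18 in deficient aorta, with overlapping groups (interaction -2.22 ± 1.37, adjusted p = 0.49). Haglr, the antisense transcript between Hoxd1 and Hoxd3, had means of 1.58, 0.936, 0.666 and 1.98 CPM in the same order. Of the HoxD sums of 19.1, 11.2, 8.61 and 22.9 CPM, Hoxd3 made up 13.2, 5.09, 4.53 and 17.4 CPM.

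Other tested genes did not pass in any comparison. Hoxa2 stayed between 15.1 and 33.7 CPM in all libraries. Hoxb6 had means of 5.55, 2.42, 1.10 and 0.175 CPM in control DA, deficient DA, control aorta and deficient aorta. Hoxa9, Hoxa10, Hoxd8 and Hoxd9 reached at most 2.70, 1.98, 5.62 and 2.01 CPM in any library.

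Genes that act with or on the Hox clusters were read from lists. Of 9 TALE homeodomain cofactors, all tested, 0 were called by genotype in the aorta by edgeR (3 at an unadjusted p under 0.05, 1 by DESeq2), and between deficient vessels 0 of 9 (0 at an unadjusted p under 0.05, 0 by DESeq2).

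The list of retinoic acid and Cdx inputs had 22 genes, 17 of them tested, and Cdx1, Cdx2 and Cdx4 had at most 3 counts in every library. In deficient DA, Cyp26b1 and Dhrs3 were lower, and the list median was 0.020 against 0.012 for all genes. Cyp26b1, the enzyme that breaks down retinoic acid, ranged from 4.81 to 25.5 CPM in control DA (median 17.1) and was at 0.187, 0.681, 5.13, 6.72 and 2.35 CPM in deficient DA, overlapping through control DA 4 (log2 -2.47 ± 0.61, adjusted p = 0.0071). Dhrs3, which reduces retinal to retinol, ranged from 63.2 to 87.3 CPM (median 74.1) and was at 55.1, 54.7, 40.2, 39.1 and 56.0 CPM (log2 -0.61 ± 0.11, adjusted p = 0.00025), without overlap.

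Cyp26b1 and Dhrs3 were also higher in the DA of control embryos (log2 3.02 ± 0.59 and 0.83 ± 0.10), where 2 of 17 were called and the list median was 0.77 against -0.0050 for all genes. For the aorta by genotype 0 of 17 were called by edgeR (6 at an unadjusted p under 0.05, 0 by DESeq2), for the deficient vessels 0 of 17 (5 and 2), and for the interaction 0 of 17 (9 and 1).

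Of 27 non-coding and flanking genes of the clusters, 25 were in the table and 12 tested. Skap2, an adaptor gene just outside HoxA, was lower with Prdm6 loss in both vessels (1 of 12 in each). It ranged from 78.8 to 100.2 CPM in control DA (median 91.4) and was at 49.3, 58.7, 52.7, 59.9 and 63.6 CPM in deficient DA. In aorta it ranged from 62.2 to 70.8 CPM in control (median 66.5) and was at 42.4, 40.7, 41.5, 47.6 and 43.8 CPM in deficient libraries. Neither pair of groups overlapped, and the log2 differences were -0.66 ± 0.074 (adjusted p = 3.7e-07) and -0.62 ± 0.076 (adjusted p = 3.2e-06), with an interaction of -0.041 ± 0.10 (adjusted p = 0.92). Hotairm1, a non-coding transcript of the HoxA cluster, had means of 9.49, 7.57, 6.89 and 5.13 CPM in control DA, deficient DA, control aorta and deficient aorta and was not called. Hotair, Hottip, Evx2 and 6 microRNA genes (Mir10a, Mir10b, Mir196a-1, Mir196a-2, Mir196b and Mir615) had at most 3 counts in every library. Between control vessels 0 of 12 were called by edgeR (2 at an unadjusted p under 0.05, 0 by DESeq2), between deficient vessels 0 of 12 (3 and 0) and in the interaction 0 of 12 (0 and 0).

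**Figure D5:**
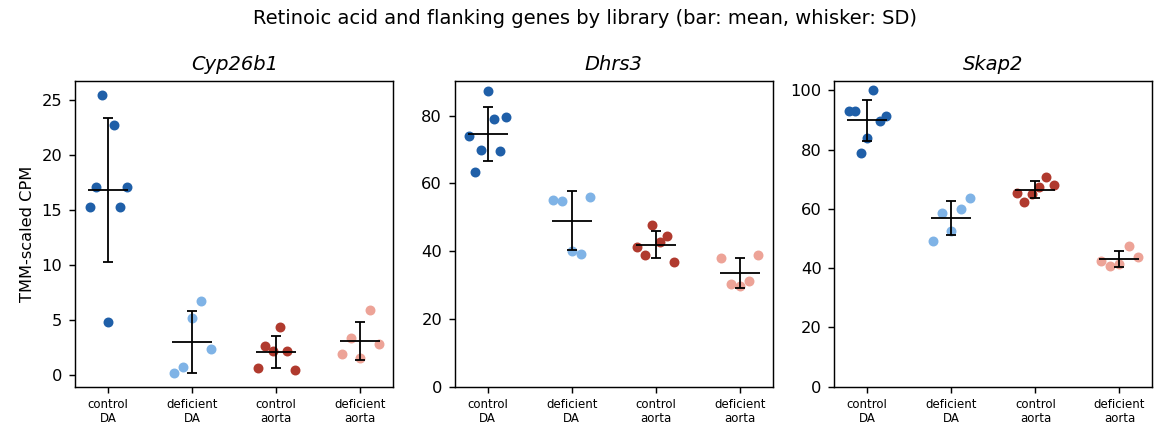
Level of Cyp26b1, Dhrs3 and Skap2 in each library (points, TMM-scaled CPM; bar: mean, whisker: SD) in control DA (n = 7), deficient DA (n = 5), control aorta (n = 6) and deficient aorta (n = 5). Cyp26b1 and Dhrs3 are highest in control DA, and Skap2 is lower in the deficient libraries of both vessels.

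Polycomb genes (16, all tested), which hold Hox clusters silent, had 0 of 16 called by edgeR in each of the 5 comparisons and 0 by DESeq2, with 3, 2, 3, 1 and 2 at an unadjusted p under 0.05 for DA genotype, aorta genotype, control vessels, deficient vessels and interaction. Their median log2 fold changes were -0.074, 0.054, 0.040, -0.074 and -0.13. Trithorax genes (12, all tested), which keep the clusters active, had 0 of 12 called by either tool in the 5 comparisons, with 1, 0, 1, 1 and 0 at an unadjusted p under 0.05. The medians of this list were -0.059, -0.0060, -0.045, -0.070 and -0.019. A list with no call does not show equal levels, since a p that misses the threshold leaves the size of a difference to its error.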

How the data were processed

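The deposited table holds expected counts, which the authors made with STAR and RSEM on mm10 (versions not given). Here they were rounded, and symbols, exon lengths and exon sharing came from GENCODE M21 (54723 rows matched, 29 without). The authors name version 20 for their counting, so gene models may differ, and among Hox rows the identifier version differs for Hoxd4 alone. All 23 libraries were fitted together, 1 mean per tissue and genotype, with edgeR 4.0.16 in R 4.3.3 (TMM, filterByExpr, quasi-likelihood F test, two-sided), Benjamini-Hochberg adjusted over all tested genes. A gene was called at adjusted p below 0.01 and log2 fold change beyond 0.5. SE is the log2 fold change over the root of F. Deficient DA replicate 4 has no column in the table and was not analysed here.

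Genes named with values are called Hox genes, Hoxb5 with its antisense row, and the highest member per kb of each cluster; others were chosen after their values were seen, and some genes are not described. Members and lists were chosen with earlier results of these data known. Alternatives were DESeq2 1.42.0, RLE scaling, other filters, thresholds and sample sets, and replicate blocks. Library pairs were checked for duplicates (chi-square per degree of freedom 16.6 to 120), and the fit was tested on simulated data. Promoters came from RefSeq. Tables used pandas 2.3.3 under Python 3.11.15, figures matplotlib 3.10.9.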

Additional observations from a re-analysis of the deposited data

Results flagged for a closer look

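The interaction of Hoxd3 is listed because the effects of genotype in the 2 vessels differed by a test of the difference itself: the log2 change in DA minus that in aorta was -3.31 (adjusted p = 0.0048). In 37 sets of 1 gene in 1 group, 0 had a highest or lowest library beyond Dixon's 95% limit, which chance passes in about 1 in 20 groups.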

How the results depend on the processing

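Of 13 called gene results, 7 stayed past the threshold under every alternative run and 6 were lost under at least 1; none changed direction. The lost ones are Hoxa5 in DA by genotype, Hoxb5 between control vessels, Hoxa5, Hoxb4 and Hoxb5os between deficient vessels, and the Hoxd3 interaction.

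The count of Hox genes called between DA genotypes, 1, became 0 without the pooled samples (Hoxa5 adjusted p 0.020) and 0 with the lower-numbered run of animals alone, both with fewer samples. It became 2 with the other run alone (Hoxb2, Hoxd3) and 2 at adjusted p below 0.05 with no fold minimum (Hoxa4, Hoxa5). Leaving out each library in turn gave 1 to 2. The aorta count, 1, became 2 with every gene of at least 1 count, 2 by DESeq2, 2 without the pooled samples and 2 without the Cre control (each adding Hoxb5os), 2 with only the aorta libraries (adding Hoxd3) and 3 at adjusted p below 0.05; leaving out each library gave 1 to 2. The count between control vessels, 7, stayed at 6 to 8 throughout. The count between deficient vessels, 3, became 0 with replicate number as a replicate block (Hoxb4 and Hoxb5os adjusted p 0.013, Hoxa5 0.013); leaving out each library gave 2 to 3. The interaction count, 1, became 0 with the replicate block (Hoxd3 adjusted p 0.017), without the pooled samples, without the Cre control, and without control aorta 4 and 5, an alternative chosen after seeing the data; leaving out each library gave 0 to 1. Where samples were not left out, the cause was not tested.

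Replicate numbers do not pair the samples: over 28 pairs with the same number the correlation of deviations from the group mean was -0.054 to 0.13 across genes, and the best match had the same number in 9 of 56 cases. In 8 pairs from 1 animal it was -0.022 to 0.080. Some alternatives gave no value: the lower-numbered run holds 1 control aorta library, so it was used for the DA genotypes alone, and the other run alone was not used for the deficient vessels or the interaction. Depth limits the posterior Hox rows: rows at 3 counts read 0.135 to 0.2005 CPM, and lower levels are not told apart from 0.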
